A study of Mus musculus with 6 samples.

Results

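Asns, Chac1, Trib3, Sesn2, Eif4ebp1, Nupr1, Gdf15 and Slc7a11 are 8 genes of the amino acid stress response that the transcription factor ATF4 drives. They were chosen by symbol, and all 8 had a row among the 632 genes of the deposited table. RNA came from prostate epithelial cells that were flow-sorted from C57BL/6 mice at 3 months of age. There were 3 control libraries and 3 E-cadherin conditional knockout libraries, from mice made to lose the adhesion receptor that joins epithelial cells, and the series describes the controls as littermates. The Cre driver, the alleles that the controls carried and whether each library was 1 animal are not stated in the sources used here. The p-values below therefore cover only the scatter of these libraries, part of which may be technical. Control libraries 1, 2 and 3 carry the titles CTL14__L2, CTL29__L2 and CTL46__L2, and knockout libraries 1, 2 and 3 the titles shiyan13__L7, shiyan28__L7 and shiyan30__L7. Every control title ends in L2 and every knockout title in L7, so a difference that goes with this mark cannot be told apart from genotype.

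When a cell runs short of an amino acid, or when unfolded protein builds up in its endoplasmic reticulum, kinases phosphorylate the initiation factor eIF2. General translation then slows, while translation of the ATF4 mRNA rises. ATF4, usually paired with a C/EBP protein, switches on genes that import and make amino acids and handle cystine and glutathione. It also switches on brakes on growth signalling and translation, and the hormone gene Gdf15. Secretory epithelia such as the prostate export much protein, and the pathway is one of their routine adjustments to that load.

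Many ATF4 targets carry a composite site for ATF4 and a C/EBP protein near the promoter, with the core TGATGNAA. The promoter windows are shown because 5 of the 7 genes that matched the RefSeq promoter table (GRCm38.p6) held this core. The windows run from 250 bases before to 50 bases after the start, and both strands were searched. Of all 32851 windows of 300 bases in that table, 3.97% held the core, and of the 424 genes of the deposited table with a window 6.37% did. Of the 6 other listed ATF4 pathway genes with a window 1 did, Pck2. Sesn2 and Gdf15 had no match to these letters in their windows, and Eif4ebp1 had no entry. In Asns (chr6:7693160-7693459, minus strand) the match began 23 bases before the start. In Chac1 (chr2:119350992-119351291, plus strand) it began 193 bases before the start, on the opposite strand. Slc7a11 (chr3:50443564-50443863, minus strand) held 2 matches, which began 66 and 47 bases before the start in opposite orientations. The match in Nupr1 (chr7:126625421-126625720, minus strand) began 110 bases before the start, on the opposite strand. In Trib3 (chr2:152344011-152344310, minus strand) the match lay 14 bases past the start, on the opposite strand. The upstream of the 2 windows of Gdf15 (chr8:70632407-70632706, minus strand) is given as the example without a match. Each window reads 5′ to 3′ along the gene, with the matches in capitals:
Asns: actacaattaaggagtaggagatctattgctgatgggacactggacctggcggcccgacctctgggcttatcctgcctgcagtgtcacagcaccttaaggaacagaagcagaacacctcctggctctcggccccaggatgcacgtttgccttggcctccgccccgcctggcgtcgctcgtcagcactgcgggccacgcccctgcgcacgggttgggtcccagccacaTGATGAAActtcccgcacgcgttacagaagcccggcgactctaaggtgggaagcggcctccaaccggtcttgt
Chac1: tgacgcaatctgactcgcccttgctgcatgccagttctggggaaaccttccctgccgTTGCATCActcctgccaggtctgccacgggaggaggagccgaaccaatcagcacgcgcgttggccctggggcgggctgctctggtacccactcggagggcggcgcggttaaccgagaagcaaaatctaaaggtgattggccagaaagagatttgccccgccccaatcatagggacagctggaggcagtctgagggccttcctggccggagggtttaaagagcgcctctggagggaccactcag
Slc7a11: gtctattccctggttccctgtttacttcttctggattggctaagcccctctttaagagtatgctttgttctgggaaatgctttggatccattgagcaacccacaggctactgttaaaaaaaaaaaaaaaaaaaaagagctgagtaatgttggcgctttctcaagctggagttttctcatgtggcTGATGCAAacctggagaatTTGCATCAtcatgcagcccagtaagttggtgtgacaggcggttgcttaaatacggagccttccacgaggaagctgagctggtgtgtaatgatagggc
Nupr1: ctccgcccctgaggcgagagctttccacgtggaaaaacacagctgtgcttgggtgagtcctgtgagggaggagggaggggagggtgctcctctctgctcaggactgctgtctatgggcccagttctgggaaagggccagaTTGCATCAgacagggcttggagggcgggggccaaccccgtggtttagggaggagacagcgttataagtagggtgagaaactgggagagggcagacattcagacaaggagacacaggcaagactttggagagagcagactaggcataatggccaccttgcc
Trib3: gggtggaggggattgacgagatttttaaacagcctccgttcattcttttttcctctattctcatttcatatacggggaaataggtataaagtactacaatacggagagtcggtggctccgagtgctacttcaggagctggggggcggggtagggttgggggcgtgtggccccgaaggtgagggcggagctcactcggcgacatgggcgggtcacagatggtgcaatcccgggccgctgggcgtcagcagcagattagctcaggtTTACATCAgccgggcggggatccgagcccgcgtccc
Gdf15: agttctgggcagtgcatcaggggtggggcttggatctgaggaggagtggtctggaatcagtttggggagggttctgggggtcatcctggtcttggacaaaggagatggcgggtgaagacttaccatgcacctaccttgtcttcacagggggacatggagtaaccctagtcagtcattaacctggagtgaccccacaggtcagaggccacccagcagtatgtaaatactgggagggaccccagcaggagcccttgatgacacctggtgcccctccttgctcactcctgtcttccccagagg
A match is a description of the sequence and says nothing on whether ATF4 was bound in these cells.

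All 8 genes had a lower mean in the knockout libraries, but only Gdf15 and Eif4ebp1 were lower in every knockout library than in every control. Values are in FPKM, which divides each gene's read fragments by its transcript length and by the size of the library, so that levels can be compared between genes. The median ratio of the knockout to the control mean over the 8 genes was 0.647, against 1.91 over all 632 listed genes, of which 182 had a lower mean. Without control library 1 the mean was lower for 6 of the 8, and for 92.9% of those 182. Control library 1 was the highest of the 6 libraries for 7 of the 8 genes, and for 62.6% of the 182. Control library 2 was the lowest control for all 8, and for 57.7% of the 182. limma on log2(FPKM + 1), with Benjamini-Hochberg adjustment over the 632 genes and a threshold of 0.05, called 1 of the 8 as lower, Gdf15, and none as higher. Over the whole table it called 7.28% of genes as lower and 65.3% as higher. The groups did not overlap, with knockout lower, for 2 of the 8 genes and for 15.7% of the table. Among the 182 genes with a lower knockout mean this share was 54.4%. The name of the deposited table marks it as a list of genes that differ in expression between groups. The rule by which the authors chose the 632 genes is not stated in the sources used here. A list chosen on these libraries makes both the p-values and these shares describe a selected list.

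**Figure D1:**
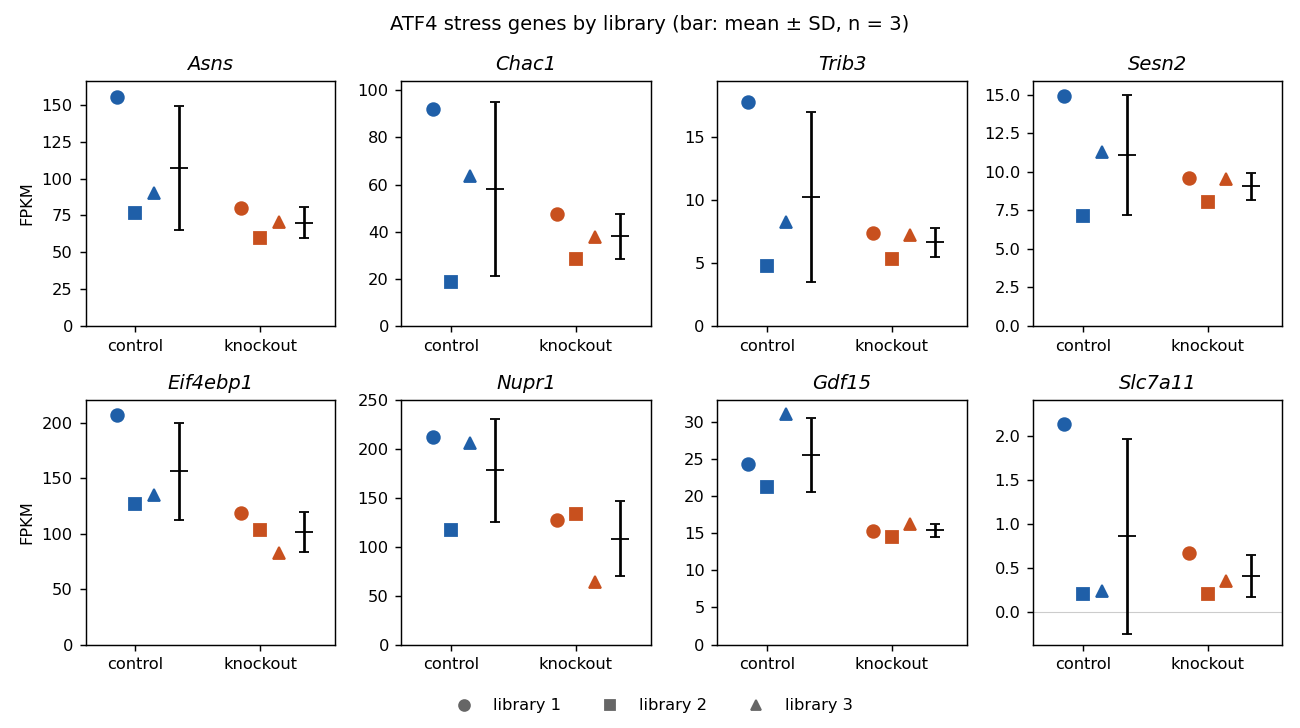
Level of each of the 8 genes in every library, in FPKM on a linear axis, with circles, squares and triangles for libraries 1, 2 and 3 of each group and bars for the mean ± SD (n = 3). Control library 1 (blue circle) is the highest point in 7 panels, and only Gdf15 and Eif4ebp1 show no overlap between the groups.

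Gdf15 and Eif4ebp1, a hormone gene and a translational repressor gene, were those whose groups did not overlap. Gdf15 (ENSMUSG00000038508, chromosome 8, 70629393 to 70632456, minus strand, GRCm38) encodes a stress hormone of the TGF-beta superfamily that acts on the brainstem receptor GFRAL. It was at 24.3, 21.3 and 31.1 FPKM in control libraries 1, 2 and 3 and at 15.4, 14.6 and 16.2 FPKM in knockout libraries 1, 2 and 3. Every knockout library was below every control, and control library 1 was not the highest. The mean fell 1.66-fold from 25.6 ± 5.04 to 15.4 ± 0.829 FPKM (SD, n = 3 each; limma log2 difference -0.68, SE 0.17, adjusted p = 0.0110). Without control library 1 the ratio of the means was 1.70, and with any 1 library left out the limma adjusted p was 0.00695 to 0.0418. Gdf15 is also a known target of p53. Of 13 p53 target genes picked for this comparison 1 was listed, the kinase gene Plk2, which rose 1.68-fold (limma log2 difference 0.62, adjusted p = 0.0130). Targets of p53 outside these 13 genes were not looked up, so Plk2 need not be the only one in the table.

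Eif4ebp1 (ENSMUSG00000031490, chromosome 8, 27260329 to 27276674, plus strand) encodes 4E-BP1, which binds the cap-binding factor eIF4E and blocks initiation of translation. It was at 206, 127 and 135 FPKM in the controls and at 118, 103 and 82.5 FPKM in the knockout libraries. The knockout values all lay below the lowest control, by 8.7 FPKM at the closest. The means were 156 ± 43.8 and 101 ± 17.9 FPKM, a ratio of 1.54, and the difference just missed the threshold (limma log2 difference -0.60, SE 0.23, adjusted p = 0.0503). Without control library 1 the ratio was 1.29 (adjusted p = 0.105), and without control library 2 it was 1.69 and passed (adjusted p = 0.0458).

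Asns and Nupr1 lay between these genes and those that rested on control library 1. Asns (chromosome 6, 7675169 to 7693254, minus strand), whose product makes asparagine from aspartate and glutamine, was at 155, 76.7 and 90.1 FPKM in the controls. In the knockout libraries it was at 80.3, 59.9 and 70.5 FPKM. All knockout libraries were below control libraries 1 and 3, and 2 of 3 were below control library 2. The means were 107 ± 42.0 and 70.2 ± 10.2 FPKM, a ratio of 1.53 that became 1.19 without control library 1, and the difference was not called (limma adjusted p = 0.104, and 0.214 without that library). Nupr1 (chromosome 7, 126623249 to 126630861, minus strand), a small chromatin-associated protein induced by stress, was the most abundant of the 8 genes. It was at 212, 117 and 205 FPKM in the controls and at 127, 133 and 63.8 FPKM in the knockout libraries. Control library 2 was below both knockout libraries 1 and 2, and knockout library 3 was the lowest of all. The means were 178 ± 52.7 and 108 ± 38.4 FPKM (ratio 1.65, limma adjusted p = 0.0939), and without control library 1 the ratio was 1.49 (adjusted p = 0.219). Without control library 2 it was 1.93 and called as lower (limma adjusted p = 0.0492), while Asns was not (ratio 1.75, adjusted p = 0.0530).

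For Chac1, Trib3 and Sesn2, and also for Slc7a11 below, the lowest of the 6 libraries was itself a control. Chac1 (chromosome 2, 119351229 to 119354381, plus strand), whose enzyme breaks down glutathione, was at 92.0, 18.8 and 63.6 FPKM in the controls, a 4.91-fold range. In the knockout libraries it was at 47.7, 28.5 and 37.8 FPKM. All knockout values lay between those of control libraries 2 and 3. The ratio of the knockout to the control mean was 0.653 with all controls, 0.922 without control library 1 and 0.488 without control library 2. On the log2(FPKM + 1) scale the difference turned from -0.36 (SE 0.56, limma adjusted p = 0.547) to 0.10 without control library 1 (adjusted p = 0.873), and without control library 2 it was -1.02 and called (adjusted p = 0.0231).

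Trib3 (chromosome 2, 152337422 to 152344032, minus strand) encodes a pseudokinase that binds AKT and dampens ATF4 activity. It was at 17.8, 4.75 and 8.29 FPKM in the controls and at 7.36, 5.29 and 7.24 FPKM in the knockout libraries. Its ratio of the knockout to the control mean was 0.645 with all controls and 1.02 without control library 1. Sesn2 (chromosome 4, 132492032 to 132510501, minus strand), a sestrin that senses leucine and restrains mTORC1, was at 14.9, 7.12 and 11.3 FPKM in the controls. In the knockout libraries it was at 9.62, 8.02 and 9.54 FPKM. Its ratio was 0.817 with all controls and 0.985 without control library 1. As with Chac1, the knockout values of both genes lay between control libraries 2 and 3, and neither was called (limma adjusted p = 0.381 for Trib3 and 0.439 for Sesn2). Without control library 2 Sesn2 was called as lower (limma adjusted p = 0.0463) and Trib3 was not (0.0822).

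Slc7a11 was the member that rested most on control library 1. It encodes xCT, the light chain of the antiporter that imports cystine in exchange for glutamate (ENSMUSG00000027737, chromosome 3, 49892526 to 50443614, minus strand). It was at 2.14 FPKM in control library 1, at 0.202 and 0.237 FPKM in control libraries 2 and 3, and at 0.667, 0.209 and 0.357 FPKM in the knockout libraries. Control library 1 held 83.0% of the sum over the controls. With all controls the ratio of the knockout to the control mean was 0.478, the lowest of the 8, and without control library 1 it was 1.87, the highest. Neither difference was called (limma adjusted p = 0.529 and 0.267). At these levels the pseudocount of 1 compresses the log2 difference, and no read depth was available to give a counting error. Slc7a11 is also a target of NRF2, and none of 16 other NRF2 target genes picked for this comparison was among the 632. Targets of NRF2 outside these 16 genes were not looked up, so the table may hold some.

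**Figure D2:**
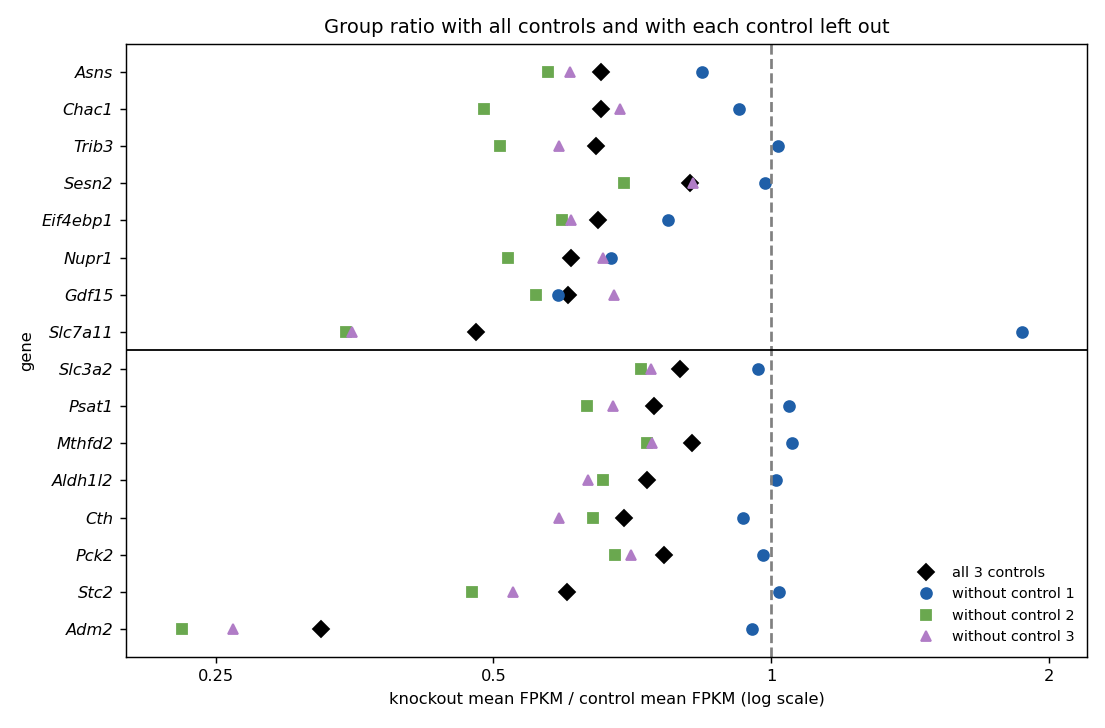
Ratio of the knockout to the control mean in FPKM, on a log axis, for the 8 genes (above the line) and the 8 other listed genes of the pathway (below it), with all 3 controls (black) and with each control left out. Without control 1 (blue circles) the ratios move to between 0.587 and 1.87 for the 8 genes and to between 0.932 and 1.05 for the others.

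Control library 1 was also the highest library across the rest of the ATF4 pathway. Of 81 other genes of the pathway 8 were listed, all 8 had a lower mean in knockout libraries, and limma called none in either direction (adjusted p = 0.234 to 0.430). None of the 19 sensors and factors, which include Atf4 itself, Ddit3 and the eIF2 kinase genes, and none of the 12 cytosolic tRNA synthetase genes was among the 632. Control library 1 was the highest of the 6 libraries for all 8 of these genes, and with the members for 15 of 16. It was the highest for 18.0% of all listed genes and for 62.6% of the 182 with a lower knockout mean. Control library 2 was the lowest of all 6 libraries for 7 of the 16, against 6.04% of the 182. For those 8 genes the median ratio of the knockout to the control mean was 0.740, and it was 0.995 without control library 1. For the 8 members it moved from 0.647 to 0.882, and for the 182 genes from 0.746 to 0.798.

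Among the transporters, Slc3a2, the heavy chain that pairs with xCT, was listed out of 11. It was at 110, 65.1 and 69.1 FPKM in the controls and at 71.9, 61.0 and 61.5 FPKM in the knockout libraries. Of 14 genes of serine, one-carbon and amino acid synthesis 5 were listed. Psat1, the aminotransferase of serine synthesis, was at 72.3, 29.3 and 36.2 FPKM in the controls and at 41.5, 30.2 and 31.1 FPKM in the knockout libraries. The others were the mitochondrial folate enzyme genes Mthfd2 and Aldh1l2, the cysteine synthesis gene Cth and Pck2, the mitochondrial enzyme that makes phosphoenolpyruvate. Their values in control library 1 were 1.83 to 2.13 times the mean of the other controls, and their ratios without it were 1.05, 1.01, 0.932 and 0.978. An exon of Aldh1l2 overlaps one of D10Wsu102e on the other strand over 1056 bases, and since counting by strand is not stated, reads of these genes could not be told apart. Of 25 other targets 2 were listed, both genes of secreted peptides or proteins. Stc2, stanniocalcin 2, was at 14.0, 3.61 and 5.48 FPKM in the controls and at 4.82, 3.91 and 5.16 FPKM in the knockout libraries. Adm2, adrenomedullin 2, was at 23.2, 1.71 and 5.11 FPKM in the controls and at 5.09, 2.19 and 2.48 FPKM in the knockout libraries. Control library 1 held 77.3% of the control sum of Adm2, and its ratio of the means went from 0.325 to 0.954 without that library.

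**Figure D3:**
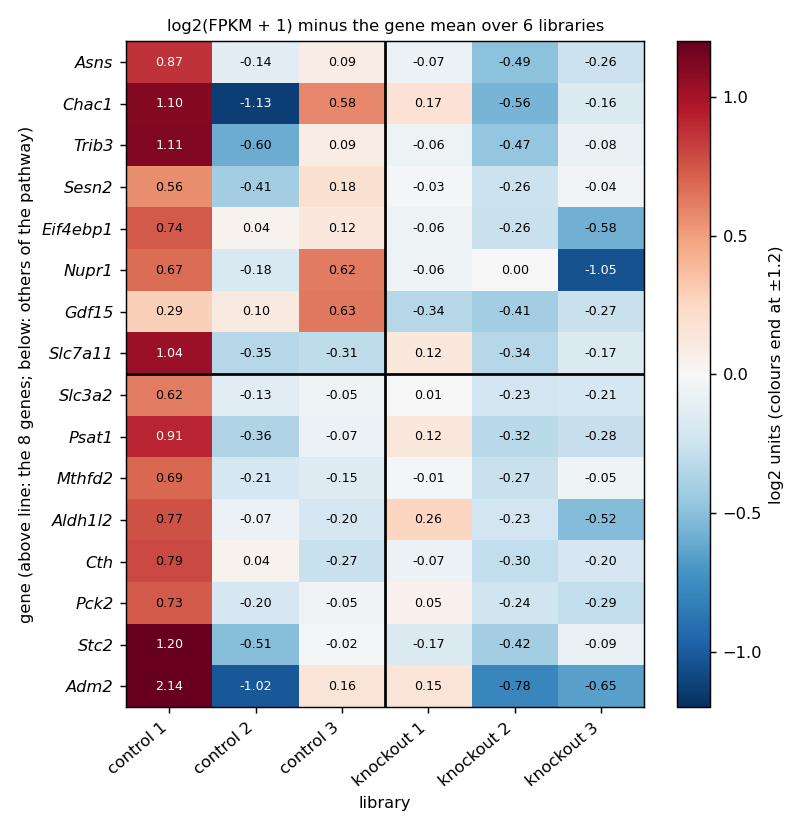
Heat map of log2(FPKM + 1) minus the gene's mean over the 6 libraries, for the 8 genes (above the line) and the 8 other listed genes of the pathway (below it), with libraries in columns. The column of control 1 is positive for all 16 genes, from 0.29 for Gdf15 to 2.14 for Adm2, and that of knockout 2 is negative for all but Nupr1.

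The knockout libraries also differed among themselves. Knockout library 1 was the highest of the 3 for 13 of the 16 genes. This share was 38.3% of all listed genes and 49.5% of the 182 with a lower knockout mean. Knockout library 2 was the lowest for 12 of the 16, against 33.5% of all listed genes and 23.1% of the 182. Relative to each gene's mean on the log2(FPKM + 1) scale, the median over the 8 members was 0.80, -0.26 and 0.15 in control libraries 1, 2 and 3. It was -0.06, -0.38 and -0.22 in knockout libraries 1, 2 and 3. On this median, control library 2 lay within the range of the knockout libraries, while control libraries 1 and 3 lay above it. Gene by gene, control library 2 lay within that range only for Asns and Nupr1. It was below every knockout library for Chac1, Trib3, Sesn2 and Slc7a11, and above every one for Gdf15 and Eif4ebp1. Control library 3 lay within the range for Slc7a11 and above it for the other members. The ratio of the highest to the lowest library had a median over the 8 genes of 2.06 in the controls and 1.41 in the knockout libraries, against 1.53 and 1.25 over the listed genes with no library of the group at 0.

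Outside the 8 genes, the listed genes whose profile over the 6 libraries was closest to the members' median were Dzank1, Pck2, Lars2, Psat1 and Tmem97. Their root mean square difference from it was 0.12, 0.12, 0.13, 0.14 and 0.14 log2 units, against a median of 0.70 over the 624 other listed genes. Pck2 and Psat1 belong to the pathway list, and Slc3a2 and Mthfd2 came 6th and 7th. Lars2 encodes the mitochondrial leucyl-tRNA synthetase and was at 49.0, 25.4 and 31.5 FPKM in the controls and at 27.6, 23.8 and 19.9 FPKM in the knockout libraries. Tmem97 encodes the sigma-2 receptor, a membrane protein of the endoplasmic reticulum. Adm2 came 286th, with the same high library but a wider range.

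**Figure D4:**
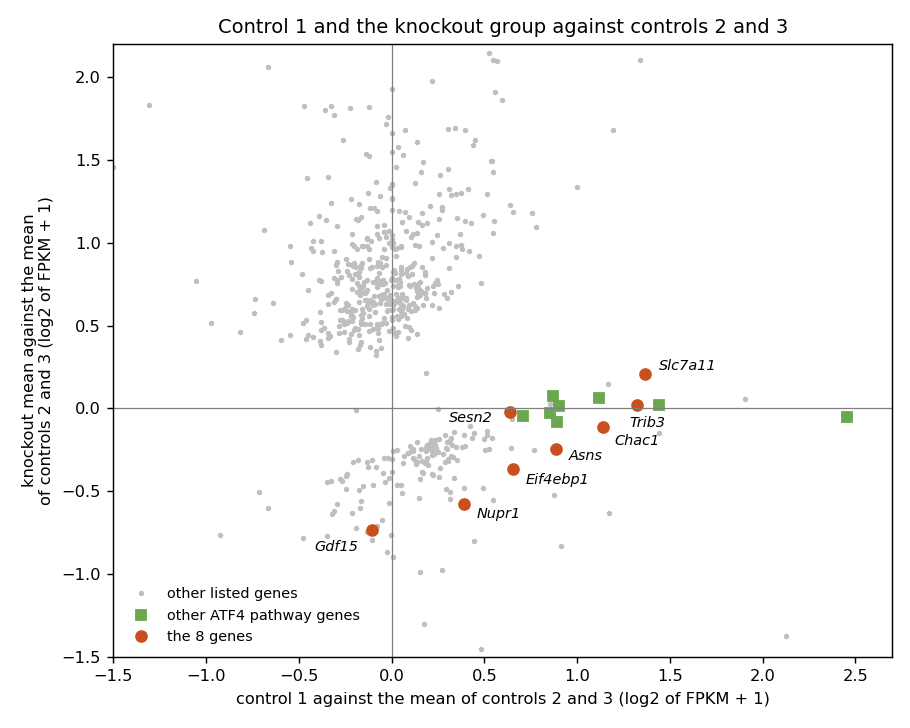
Each point is a gene, with control 1 against the mean of controls 2 and 3 on the x axis and the knockout mean against the same controls on the y axis, both as log2 ratios of FPKM + 1, which share a denominator. 597 genes are drawn and 35 lie beyond the axes. The 8 other pathway genes (green) and Slc7a11, Trib3, Sesn2 and Chac1 lie to the right and within 0.21 of 0 on the y axis, while Gdf15 lies lowest of these 16 genes, at -0.73, and is the only one of them left of 0 on the x axis.

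Markers of other cells were higher in the knockout libraries, as were most genes of the table, of which 65.3% were called as higher. The counts below stand against that share. Every listed myeloid, lymphoid, fibroblast and basal epithelial gene was called as higher. Whether these lists differ from the rest of the table was not tested. All 18 listed of 23 myeloid genes rose, and their summed level was 320 to 422 FPKM in the controls and 750 to 766 FPKM in the knockout libraries. All 5 listed of 19 lymphoid genes rose (summed level 105 to 173 and 391 to 576 FPKM), as did all 4 listed of 12 fibroblast genes (72.0 to 91.7 and 122 to 127 FPKM). None of 10 endothelial and 8 smooth muscle genes was listed. Within the controls the lists did not share an order. Library 1 had the lowest myeloid and fibroblast sums and library 2 the highest. Library 1 had the highest lymphoid sum (173, 140 and 105 FPKM in control libraries 1, 2 and 3) and the highest basal epithelial sum (115, 87.8 and 85.4 FPKM). These sums lean on abundant genes and need not hold for each gene. Igkc alone was at 146, 112 and 85.9 FPKM in those libraries, and the myeloid gene Cd74 at 113, 173 and 133 FPKM. Jchain and Cd79a were also highest in library 1, but Ighm was highest in library 2. Aif1 was lowest in library 1, but Ctss and C1qc were lowest in library 3. Basal epithelial genes rose in 5 of 5 listed of 13, among them Krt17 by 4.62-fold. Of 16 luminal genes 2 were listed, Krt4 and Psca, and both rose. The rest of that list had no row, and luminal genes outside it, such as secretory genes, were not taken up. These 2 genes therefore do not describe luminal cells as a whole. The luminal markers Epcam, Krt8 and Krt18 and the targeted gene Cdh1 were not among the 632 genes. Neither the sort nor the genotype could therefore be checked on them. All 4 listed of 19 genes that tissue dissociation can induce rose, among them Egr1 by 3.67-fold. Of 18 acute phase genes 8 were listed, of which 7 had a higher knockout mean and 6 were called as higher. The part of these differences in the ATF4 genes was not tested. With 1 value per gene and library, fewer cells of a type and less RNA per cell cannot be told apart. None of 16 endoplasmic reticulum chaperone genes picked for this comparison was among the 632. Protein folding genes outside these 16 were not looked up, so the table may hold some.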

How the data were processed

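FPKM values for 632 genes in 6 libraries, and a mean per group, came from the authors' deposited table. TopHat2 2.0.14, Cufflinks 2.2.1, Cuffdiff and GRCm38 are named in the submitters' processing notes, without roles. The unit was inferred from these tools, since the file header names none. The labels name both a bulk library kit and a droplet single-cell kit, and which was used is not settled. The deposited group means match the 3 libraries to a relative 4.95e-06. Depth is unknown. Among control pairs, 9 to 11 of 51 or 52 ratios of values under 0.5 FPKM matched ratios of whole numbers up to 5 within 0.2%, so reads were not recovered. The listed genes summed to 31468 to 36565 FPKM, which says nothing on depth.

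log2(FPKM + 1) of all 632 genes was fitted with limma 3.58.1 under R 4.3.3, the prior variance following the mean, without covariates, and tested on simulated data. The pseudocount understates changes of low genes. Ratios and folds are of group means with no pseudocount. Positions are from GENCODE M21 (GRCm38), which held all 632 identifiers. Promoters are from RefSeq. Python 3.11.15 with pandas 2.3.3, numpy 2.4.6 and matplotlib 3.10.9 was used. The members and lists were chosen with earlier results of these data known. Named genes were the 8 members, every listed gene of the pathway lists, the 5 genes closest in profile and up to 4 listed genes of each other list, of which examples are printed. The alternatives were another pseudocount, a minimum level, centring, a constant prior, a stricter threshold and leaving out each library. Adjustment over all annotated protein-coding genes was added after the values were seen.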

Additional observations from a re-analysis of the deposited data

How the results depend on the processing

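The direction of all 8 genes was the same under every alternative except without control replicate 1, where Chac1 (0.10), Trib3 (0.0503), Sesn2 (0.007) and Slc7a11 (0.20) were higher in knockout on the log2(FPKM + 1) scale. Those 4 differences were not called (limma adjusted p = 0.267 to 0.981). Of the 8 genes 1 was called as lower with all libraries, 0 at a threshold of 0.01, 0 with adjustment over all 21951 annotated protein-coding genes (lowest limma adjusted p = 0.383, Gdf15) and 5 with values centred on the median listed gene (Gdf15, Eif4ebp1, Asns, Nupr1 and Sesn2). Leaving out 1 library gave 1 to 5, and the 5, without control replicate 2, were Gdf15, Eif4ebp1, Chac1, Nupr1 and Sesn2. With 1 library left out, log2 differences reached -1.02 for Chac1, -0.80 for Trib3, -0.48 for Sesn2 and -0.49 for Slc7a11, each without control replicate 2. Over the table, the 46 genes called as lower became 162 with centring, 8 at a threshold of 0.01, 1 with adjustment over protein-coding genes and 20 to 79 with 1 library left out, of which 20 was without control replicate 1 and 79 without control replicate 2. The 413 called as higher became 67 with centring, 23 over protein-coding genes and 365 to 410 with 1 library left out. Rises were 90.0% of calls as deposited and 29.3% with centring, which removes a shift of 0.66 (log2) and by construction balances the signs of the listed genes, not the calls. On that scale the 8 genes were lower by -0.87 to -1.40. The pseudocount of 0.1, the minimum of 1 FPKM and the constant prior changed no call of the 8, and Slc7a11 had no value under that minimum. No paired analysis was possible because the titles share no replicate numbers. Depth is unknown, so no counting error can be given for Slc7a11, the lowest of the 8.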

Other observations

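Control library 1 also held high values outside the ATF4 pathway. Cisd3 and Saa3 are given as examples, chosen after their values were seen. Cisd3, a gene of a mitochondrial iron-sulphur protein, was at 680, 30.4 and 31.3 FPKM in control libraries 1, 2 and 3 and at 33.1, 32.4 and 33.5 FPKM in the knockout libraries. Every knockout library was above control libraries 2 and 3 and below control library 1. Saa3, an acute phase gene, was at 50.2 FPKM in control library 1 and at 1.44 and 7.29 FPKM in the other controls. In the knockout libraries it was at 14.7, 7.37 and 11.7 FPKM, above both of those controls and below control library 1.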
